A study of Mus musculus with 16 samples.

Results

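Cells that a published atlas of mouse gastrulation and early organogenesis labelled as midbrain were examined in chimeric mouse embryos made from *Stat3* null and WT cells. Members were all cells whose transferred atlas label contained the word midbrain, at every stage, after the authors' RNA quality filter and without their doublet calls. Of 37841 cells analysed, 2673 carried such a label. They fell under 3 labels that were kept apart: Dorsal midbrain neurons with 1869 cells, Midbrain/Hindbrain boundary with 713 cells and Midbrain progenitors with 91 cells. None of them came from E7.5 embryos.

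*Stat3* null cells were derivatives of CD1 embryonic stem cells that lacked *Stat3* and carried a tdTomato reporter. Chimeras were made by placing about 10 such cells in a WT CD1 host blastocyst on E3.5, and the embryos were dissected on 1 of 3 days of gestation (E7.5 to E9.5) and sorted by fluorescence. The tdTomato-positive cells formed the *Stat3* null group and the tdTomato-negative host cells of the same embryos formed the WT group. The groups are thus sort gates, one for the injected line and one for the host, so that the effects of *Stat3* loss and of cell origin cannot be told apart in these libraries. The gates were not pure by their transcripts: 596 cells sorted as WT held a tdTomato UMI and were left out, and some cells sorted as *Stat3* null held none, with the shares given beside the targeted gene. E8.5 libraries came from pooled embryos. The labels list 4 replicates of each genotype at E9.5 whereas the study's account names 2 embryos, so the p-values below measure the spread between libraries, which may be technical.

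The midbrain forms between the forebrain and the hindbrain, and its posterior edge holds the isthmic organizer, a narrow ring of neuroepithelium that patterns the tissue on either side. Cells of the organizer secrete FGF8 and WNT1 and express the transcription factors EN1, EN2, PAX2 and PAX5. OTX2 marks the midbrain side and GBX2 the hindbrain side. Neural progenitors leave the cell cycle to become neurons, which switch on *Tubb3*, *Elavl3* and *Stmn2*. STAT3 is a transcription factor activated by gp130 cytokine receptors, and in later neural development it promotes the astroglial programme.

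Libraries are named by stage, genotype and a letter, which is only a name and pairs nothing. The 12 libraries of E8.5 and E9.5 held 1146 to 4327 analysed cells each, with medians of 18205 to 45760 UMIs per cell. Libraries E9.5 WT C and E9.5 WT D shared 292 cell barcodes, against at most 8 for any other pair. Of these shared barcodes, 3.42% carried the same label in both libraries. The correlation of log counts was 0.774 within a shared barcode and 0.775 between cells of different shared barcodes. In all, 78 cells with a midbrain label had a barcode found in another library, and results without such cells are among the alternatives. Haemoglobin transcripts, which are typical of erythroid cells, summed over 7 genes to 7.53 to 127 CPM (UMIs scaled to a common library total) in the E9.5 *Stat3* null Dorsal midbrain neurons and to 276 to 1062 CPM in the WT ones. The Midbrain/Hindbrain boundary cells gave 11.6 to 69.8 against 257 to 953 CPM at E9.5. The part of these transcripts in the results below was not tested. Levels are in CPM, and levels of different genes are not compared.

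The 3 labels were first checked against the midbrain markers *En1*, *Otx2* and *Pax2* in the WT libraries of E9.5, beside the other brain and spinal cord labels, 12 labels in all. These levels describe the cells that each label took and carry no test. The Midbrain/Hindbrain boundary cells had the highest mean *En1* level of the 12 labels, 120 ± 65.2 CPM (SD, n = 4). *En2*, the paralogue of *En1* in the same tissue, was at 144 ± 68.3 CPM and *Pax5* at 87.4 ± 55.6 CPM, both also highest under this label. *Fgf8*, the organizer's signal, was at 73.4 ± 54.1 CPM, *Otx2* at 108 ± 35.1 CPM, the fourth of 12 labels, and *Pax2* at 9.10 ± 8.44 CPM, also the fourth. The genes with the highest ratio to the next label were *Cnpy1*, an FGF-signalling gene of the isthmus, *En2*, *Pax5*, *Trh*, *Efna2*, *Chst2* and *En1*, with ratios of 5.07 down to 1.996. The leading genes of this label thus included *En1* and other isthmic genes, whereas *Otx2* and *Pax2* were higher under 3 other labels each.

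The WT libraries were uneven under this label. *En1* was at 67.5, 190, 61.5 and 161 CPM in E9.5 WT libraries A to D, and *Fgf8* at 82.5, 131, 0 and 80.7 CPM. Library E9.5 WT C supplied 12 cells and was left out of the tests because a library had to hold more than 15 cells of a label. When every cell was thinned to 10000 UMIs, 49.7% of the E9.5 WT cells and 53.5% of the E9.5 *Stat3* null cells held a UMI of any *Hox* gene, the genes of hindbrain and spinal cord. By library these shares ran from 25.4% to 70.2% in WT and from 44.4% to 64.2% in *Stat3* null, and at E8.5 from 8.82% to 21.4%. The same measure gave 39.3% and 40.5% in *Stat3* null and WT Ventral forebrain progenitors of E9.5, which should lack *Hox* genes, and 13.9% and 18.4% in those of E8.5. The median depths at E9.5 were 36032 and 28283 UMIs in *Stat3* null and WT boundary cells, against 33018 and 24679 in the forebrain cells. Of the 7 E9.5 libraries with more than 15 boundary cells 6, with 44.4% to 70.2%, lay above the forebrain level and WT B lay below it. The shares are not read as shares of cells that express *Hox* genes.

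The leading genes of the label Dorsal midbrain neurons were neuronal, and progenitor transcripts were also present, as given below. *Tubb3*, a neuronal tubulin, was at 1349 ± 80.2 CPM (SD, n = 4), *Stmn2* at 703 ± 85.9 CPM and *Elavl3* at 339 ± 41.8 CPM in E9.5 WT cells, the highest of the 12 labels in each case. The leading genes were *St18*, *Nhlh1*, *Clvs1*, *Nhlh2*, *Myt1*, *Dcx*, *Lhx4*, *Isl1*, *Mnx1* and *Neurod1*, at ratios to the next label of 82.3 down to 39.2. *Isl1*, *Lhx4* and *Mnx1* are transcription factors of motor neurons, and *Isl1* also serves sensory neurons. *Isl1* was at 307 ± 34.8 CPM.

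The midbrain markers had middle ranks under the same label. *En1* was at 19.8 ± 8.01 CPM, the third of 12 labels, *Otx2* at 47.1 ± 21.4 CPM, the seventh, and *Pax2* at 10.8 ± 5.74 CPM, the third. At 10000 UMIs a cell, 84.7% of the WT cells (exact binomial 95% interval 82.2 to 87.1%, counting error only) and 85.05% of the *Stat3* null cells (82.6 to 87.3%) held a *Hox* UMI. Unthinned, the shares were 92.0% and 93.5%, at median depths of 21485 and 24956 UMIs. *Otx2* UMIs were found in 14.1% of the WT cells and 10.8% of the *Stat3* null cells, and *En1* UMIs in 6.19% and 4.88%. *Isl1* was found in 37.7% and 38.1% of the cells. The progenitor genes *Sox2* and *Nes* were at 287 ± 31.3 and 240 ± 45.2 CPM in E9.5 WT cells, rank 12 and rank 6 of 12 labels. After the same thinning, 55.0 to 69.5% of the cells of an E9.5 library held both a *Sox2* and a *Tubb3* UMI. Both a *Tubb3* and a *Stmn2* UMI were found in 51.2 to 61.0%. Progenitor transcripts were thus found beside neuronal ones under this label. The cells are therefore called here by their label name only, since their leading genes were neuronal and most of them held *Hox* transcripts.

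A *Hox* UMI was found at 10000 UMIs in every Spinal cord progenitor cell of both genotypes. The Dorsal midbrain neurons lay between these cells and the forebrain progenitors, and above the forebrain level in each library, from 75.6% to 92.2% in WT and from 79.9% to 88.4% in *Stat3* null. The few Dorsal midbrain neurons of E8.5 gave no test, since 1 library of each genotype held more than 15 of them. In those libraries, with 21 *Stat3* null and 22 WT cells, *Tubb3* was at 1073 and 1266 CPM and *Otx2* at 15.7 and 151 CPM.

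Midbrain progenitors were too few for a test, with 2 to 19 cells in each E9.5 library and 3 to 10 in each E8.5 library. In E9.5 WT cells *En1* was at 0, 0, 0 and 27.8 CPM in libraries A to D and *Pax2* was at 0 in all 4. *Otx2* was at 66.9, 110, 0 and 30.9 CPM. *Sox2*, the pan-neural progenitor factor, was at 443 ± 68.9 CPM (SD, n = 4). The dorsal genes *Zic1* and *Msx1* were at 280 ± 43.5 and 171 ± 53.0 CPM, and *Hoxb4* was at 149 ± 50.7 CPM. The gene with the highest ratio to the next label was *Wnt4*, at 155 ± 43.7 CPM and a ratio of 2.61. *Hoxb6* had rank 4 by this ratio, at 77.7 ± 79.8 CPM and 1.71, and *Hoxa5* rank 9, at 80.0 ± 31.0 CPM and 1.53. For each of these genes the next label was Dorsal spinal cord progenitors. *Sox2* and the dorsal genes were thus present in all 4 libraries, while *En1* was at 0 in 3 of them and *Pax2* in all. Midbrain progenitors are therefore also called here by their label name only. The share of the 25 nearest atlas cells that carried the label had medians of 0.34 to 0.58 across libraries under this label, against 0.56 to 1.00 for Dorsal midbrain neurons. For Midbrain/Hindbrain boundary cells the medians were 0.64 to 0.78 at E8.5 and 0.40 to 0.76 at E9.5. Boundary cells with a share under 0.5 were 12.5 to 26.5% of a library at E8.5 and 14.8 to 66.7% at E9.5.

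**Figure D1:**
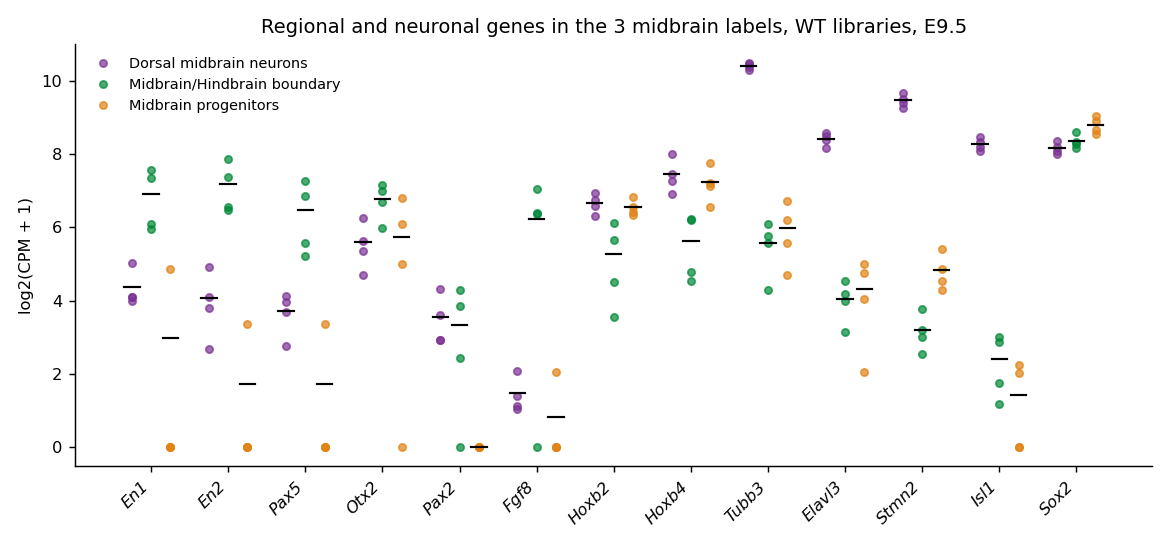
Levels of regional and neuronal genes in the 3 midbrain labels in WT cells of E9.5, as log2(CPM + 1). Each point is a library, 4 under each label, and the bar is the log2 of the mean CPM + 1. *En1*, *En2*, *Pax5* and *Fgf8* sit highest under Midbrain/Hindbrain boundary, while *Tubb3*, *Elavl3*, *Stmn2* and *Isl1* sit highest under Dorsal midbrain neurons.

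The contribution of *Stat3* null cells to the midbrain labels was compared next, as the share of a library's cells. At E9.5 the Dorsal midbrain neurons were 11.8, 8.05, 9.04 and 6.14% of *Stat3* null libraries A to D and 11.7, 7.91, 8.19 and 3.69% of the WT libraries. The means were 8.76 ± 2.35% and 7.88 ± 3.29% (SD, n = 4 each), and the groups overlapped (two-sided exact permutation test, p = 0.714). The Midbrain/Hindbrain boundary cells were 1.90 ± 0.566% of *Stat3* null and 1.54 ± 0.687% of WT libraries (exact permutation p = 0.429, n = 4 each). The smallest p that 4 libraries against 4 allow is 0.0286. All midbrain labels together made up 10.97 ± 2.33% and 9.68 ± 3.53% (exact permutation p = 0.6, n = 4 each). Such a share also depends on the other cells of the gate, and the study reports too few *Stat3* null erythroid cells at E9.5. Of the neural tube cells, midbrain labels were 32.5, 28.0, 28.6 and 21.7% in *Stat3* null libraries A to D. They were 31.6, 22.5, 22.3 and 20.8% in the WT libraries, and this share was not tested.

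At E8.5 the Midbrain/Hindbrain boundary held most cells with a midbrain label. Its shares were 3.13 and 2.97% in the *Stat3* null libraries and 3.38 and 2.69% in the WT libraries, so that the *Stat3* null values lay between the WT ones. With 2 libraries against 2 the smallest p is 0.333. A negative binomial model of cell numbers over all labels, fitted with edgeR, gave log2 fold changes (*Stat3* null against WT) of 0.24 (SE 0.40) for the boundary and 0.10 (SE 0.32) for Dorsal midbrain neurons at E9.5. At E8.5 they were 0.01 (SE 0.25) and −0.26 (SE 0.87). Midbrain progenitors gave 1.22 (SE 0.61) at E8.5, from 15 against 9 cells, and 0.28 (SE 0.61) at E9.5. The adjusted p of edgeR's quasi-likelihood test was 0.844 to 0.997 for these 6 values, among 68 labels at E8.5 and 71 at E9.5.

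**Figure D2:**
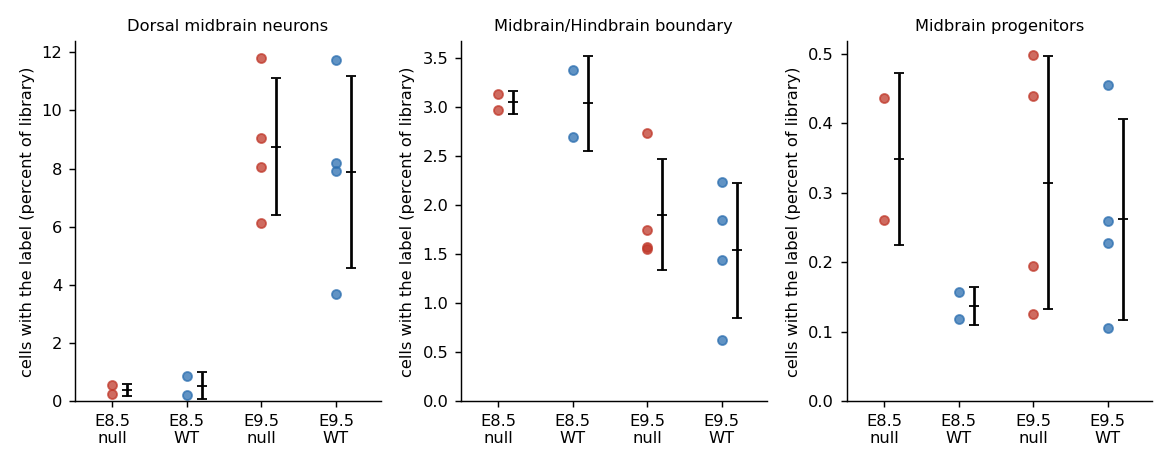
Cells of each midbrain label as a percent of all analysed cells of a library, by stage and genotype. Points are libraries (2 in each E8.5 group, 4 in each E9.5 group) and the bars beside them are mean ± SD. *Stat3* null and WT points overlap under every label at E9.5.

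Progress through development and the cell cycle was compared in all cells with a midbrain label, most of which were Dorsal midbrain neurons at E9.5, with a permutation of the genotype within each stage. The mean atlas stage of the cells' nearest neighbours was 9.22 ± 0.0142 days in *Stat3* null and 9.22 ± 0.0298 days in WT at E9.5 (SD, n = 4 each), and 8.84 ± 0.0801 and 8.86 ± 0.142 days at E8.5 (n = 2 each). Averaged over both stages, *Stat3* null minus WT was −0.012 days (two-sided exact permutation test, 420 arrangements, p = 0.752). Under the label Dorsal midbrain neurons the mean was 9.24 days in E8.5 *Stat3* null A and in E8.5 WT A. It was 9.25 to 9.26 days in the E9.5 libraries. The measure thus moved little with age under this label, and the pooled value cannot show a delay there. The summed level of 25 S phase genes differed by −88.3 CPM (exact permutation p = 0.467) on levels of 2082 to 3321 CPM. That of 25 G2 and M phase genes differed by 124 CPM (exact permutation p = 0.810). In none of these pooled measures did the genotypes separate. By label, the G2 and M phase genes had a median log2 fold change of −0.15 in Dorsal midbrain neurons at E9.5. In boundary cells it was 0.13 at E9.5 and 0.13 at E8.5, and 0 of these genes were called in any of the 3 comparisons.

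The targeted gene was examined before the other genes. The deleted *Stat3* allele lacks internal exons, and the 3' tags counted here lie downstream of the deletion, so a *Stat3* count does not check the sort. In Dorsal midbrain neurons of E9.5 *Stat3* was at 4.01, 4.04, 5.35 and 4.50 CPM in the *Stat3* null libraries and at 7.97, 8.99, 10.1 and 8.09 CPM in the WT libraries. All *Stat3* null values were below all WT values, with means of 4.47 ± 0.627 and 8.80 ± 1.00 CPM (exact permutation p = 0.0286, n = 4 each, the smallest possible). The change on the log2 scale was −0.98 ± 0.19 (SE) in edgeR's quasi-likelihood test, with a Benjamini-Hochberg adjusted p of 0.045. In Midbrain/Hindbrain boundary cells *Stat3* was lower throughout, at 1.52 ± 0.447 CPM in *Stat3* null (SD, n = 4) and 2.02 ± 0.419 CPM in WT (n = 3) at E9.5, on 11 and 12 UMIs over all libraries. Over both stages the difference there was −0.28 CPM (exact permutation p = 0.167). Whether a change like that in Dorsal midbrain neurons could be found at this depth was not tested. Over all cells with a midbrain label and both stages the difference was −2.29 CPM (exact permutation p = 0.00476, the smallest possible). tdTomato UMIs were found in 97.9 to 98.6% of the *Stat3* null Dorsal midbrain neurons of E9.5 by library, and in 76.5 to 100% of the *Stat3* null boundary cells of both stages.

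Expression in Dorsal midbrain neurons at E9.5 was compared between 4 *Stat3* null libraries, with 510, 194, 144 and 95 cells, and 4 WT libraries, with 361, 209, 156 and 146 cells. UMIs were summed over the cells of a library and tested with edgeR's quasi-likelihood test. A gene was called when its Benjamini-Hochberg adjusted p was under 0.05 and its log2 fold change at least 1 in size. Of 10868 genes tested, 12 were called, 0.11% of them, 4 higher (0.0368%) and 8 lower (0.0736%) in *Stat3* null cells. DESeq2 called 18. None of the 12 is a marker of the midbrain, of neural progenitors or of neurons in the lists used here.

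The smallest adjusted p belonged to *Grb10*, an imprinted gene that encodes an adaptor of receptor tyrosine kinases. *Grb10* was at 18.8, 16.5, 14.6 and 18.7 CPM in *Stat3* null libraries and at 341, 377, 362 and 359 CPM in WT libraries. Its means were 17.2 ± 1.98 and 360 ± 14.7 CPM, far apart against the spread of either group (log2 fold change −4.38 ± 0.08 SE, edgeR adjusted p = 6.9e-15). At 10000 UMIs a cell, 7.95% of the *Stat3* null cells and 93.1% of the WT cells held a *Grb10* UMI. *Cwc22*, a splicing factor with near-identical copies in some mouse strains, moved the other way. It was at 173, 167, 183 and 180 CPM in *Stat3* null and 34.0, 35.3, 39.5 and 32.4 CPM in WT libraries (log2 fold change 2.32 ± 0.08 SE, edgeR adjusted p = 1.27e-11).

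The aldo-keto reductases *Akr1b8* and *Akr1e1* were lower in *Stat3* null cells. The former was at 7.31 to 8.63 CPM against 23.7 to 41.6 CPM (log2 fold change −2.14, SE 0.18), and the latter at 2.20 to 6.99 against 14.7 to 28.9 CPM (−2.05, SE 0.31). The tubulin ligase gene *Ttll6* was nearly absent from *Stat3* null cells, with 3 UMIs in all against 158 in WT, and its 4 WT libraries were at 9.44, 8.99, 6.33 and 3.89 CPM. *Wdr66*, a gene of motile cilia, fell by 1.43 on the log2 scale (SE 0.16), *Pusl1*, a pseudouridine synthase-like gene, by 1.68 (SE 0.23) and the disintegrin gene *Adam11* by 1.39 (SE 0.21). *Hist1h4i* fell by 1.83 (SE 0.21) and is uncertain because it is one of many near-identical histone H4 genes. *Baiap2l1* (1.34, SE 0.22), *Lrrc46* (1.87, SE 0.35) and *Arhgap8* (2.10, SE 0.40) were higher in *Stat3* null cells, the last pair on 74 and 79 UMIs. In all 12 genes the *Stat3* null and WT libraries did not overlap, which held for 4.1% of all genes tested. *Ttll6*, *Lrrc46* and *Adam11* lie on chromosome 11 with the targeted gene *Stat3*. They start at bases 96133786, 97034602 and 102761439, and *Stat3* starts at 100885098. *Grb10* lies farther off on the same chromosome, at 11930508. The part of linkage to the targeted allele in these changes was not tested.

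*Akr1e1* lost its call without *Stat3* null C, *Stat3* null D, WT A or WT B and when only cells with a label share of at least 0.5 were used, where its adjusted p reached 0.102 at most, and *Lrrc46* and *Arhgap8* lost theirs without any 1 of the 8 libraries. The other genes kept theirs in all 14 alternatives, except *Baiap2l1*, which lost it without *Stat3* null C or WT A.

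**Figure D3:**
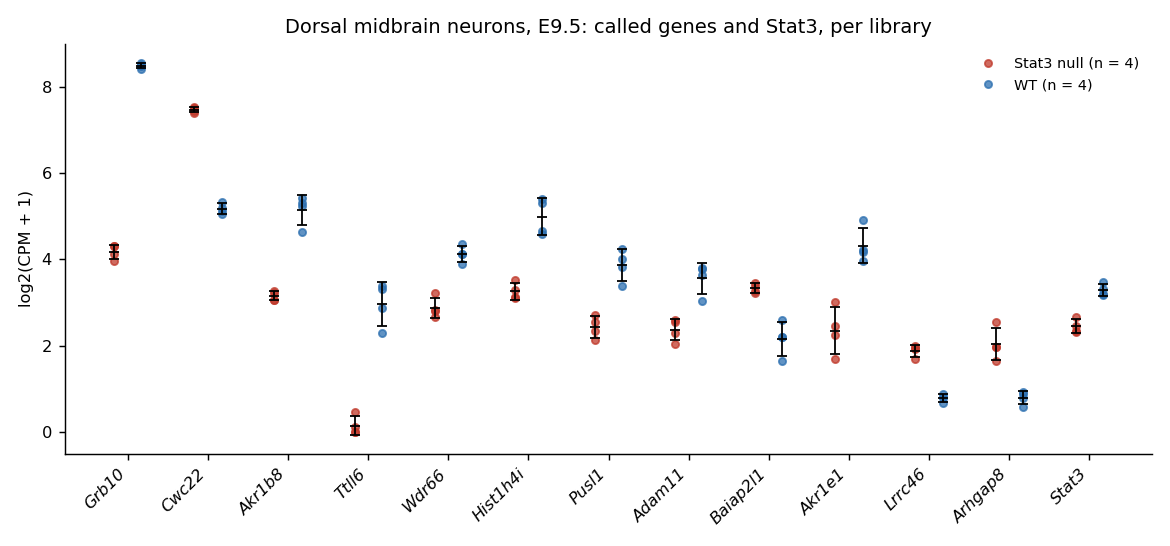
The 12 called genes and *Stat3* in Dorsal midbrain neurons of E9.5, as log2(CPM + 1) by library, with mean ± SD (4 *Stat3* null and 4 WT libraries). *Grb10* sits lower in *Stat3* null than in WT libraries and *Cwc22* higher, and no gene overlaps between the groups.

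Gene groups of the tissue were then read beside these calls. Of 37 tested genes of neurogenesis and neurons 0 were called, with a median log2 fold change of 0.06 against −0.01 for all genes tested. *Tubb3* was at 1426 ± 18.1 CPM in *Stat3* null and 1349 ± 80.2 CPM in WT, and *Isl1* at 291 ± 30.8 and 307 ± 34.8 CPM (SD, n = 4 each). Of 18 tested midbrain and isthmic organizer genes 0 were called (median −0.11), and of 21 neural progenitor genes 0 (median −0.07). *Otx2* was at 32.4, 17.99, 25.9 and 26.3 CPM in *Stat3* null and at 24.9, 48.0, 39.7 and 75.8 CPM in WT libraries (log2 fold change −0.80 ± 0.37 SE, edgeR adjusted p = 0.843). *En1* gave −0.39 (SE 0.26) and *Pax2* 0.86 (SE 0.34, edgeR adjusted p = 0.768). The groups overlapped for all 3 markers.

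The STAT3 pathway was measured by 17 of 26 listed genes, with 0 calls and a median of −0.05. *Stat3* itself passed the adjusted p and missed the fold threshold. *Socs3*, the feedback inhibitor that STAT3 induces, was at 10.2 ± 2.86 CPM in *Stat3* null and 7.71 ± 1.23 CPM in WT (log2 fold change 0.36 ± 0.22 SE, edgeR adjusted p = 0.904). The 7 tested astroglial genes gave 0 calls. *H19*, an imprinted non-coding RNA, was at 4.95, 8.26, 2.32 and 73.7 CPM in *Stat3* null and at 106, 84.9, 104 and 171 CPM in WT libraries. Library E9.5 *Stat3* null D stood apart from the other three, and *H19* was not called (log2 fold change −2.84 ± 0.97 SE, edgeR adjusted p = 0.709).

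STAT dimers bind the palindrome TTCNNNGAA, which reads the same on both strands. Promoters (RefSeq, GRCm38.p6, 250 bases before to 50 after a gene start) were found for 19 of 24 genes looked up, namely the 18 genes called between genotypes, *En1*, *En2*, *Otx2*, *Pax2*, *Stat3* and *Socs3*. The motif stood in 4 of their 28 promoters and in 8.3% of all 32851 promoters. The sites are shown because they are the only ones near the starts of these genes, with the motif in capitals and the flanking bases in lower case. They lie at chr11:117969502-117969530 (minus strand) before *Socs3*, chr19:44746355-44746383 (plus strand) before 1 of 3 starts of *Pax2*, chr14:48665204-48665232 (minus strand) before a start of *Otx2* and chr1:63200108-63200134 (plus strand) before a start of *Zdbf2*.
Socs3: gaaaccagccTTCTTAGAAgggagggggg
Pax2: gggatggggcTTCAGGGAAagactgtgtg
Otx2: gtagatgggcTTCTTGGAAgaaggggaaa
Zdbf2: agagcgagTTCCAGGAAatccagggct
Of these genes *Zdbf2* was called, at E8.5 in boundary cells and higher in *Stat3* null, and *Socs3*, *Pax2* and *Otx2* were called in none of the comparisons between genotypes within a label. The windows of *Grb10*, *Cwc22*, *Wnt1*, *Akr1e1* and *Akr1b8* held no such match.

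The isthmic organizer was compared in the Midbrain/Hindbrain boundary cells. At E9.5 4 *Stat3* null libraries, with 67, 66, 25 and 27 cells, were set against WT A, B and D, with 57, 59 and 57 cells. Of 8948 genes tested 6 were called, 0.0671% of them, 2 higher (0.0224%) and 4 lower (0.0447%) in *Stat3* null cells. The libraries of the genotypes did not overlap for 5.53% of all genes tested. DESeq2 also called 6, and 2 were called when only cells with a label share of at least 0.5 were used. None of the 6 was an organizer gene. *En1* was at 107, 151, 228 and 280 CPM in *Stat3* null and at 67.5, 190 and 161 CPM in WT libraries, *Pax5* at 111 ± 49.99 and 105 ± 53.7 CPM and *Wnt1* at 36.7 ± 11.4 and 35.9 ± 9.91 CPM. *Fgf8* was at 118, 116, 172 and 174 CPM against 82.5, 131 and 80.7 CPM, and the groups overlapped (log2 fold change 0.55 ± 0.22 SE, edgeR adjusted p = 1).

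Of the 6 called genes 4 were also called in Dorsal midbrain neurons. *Cwc22* was at 146, 126, 153 and 188 CPM in *Stat3* null and 40.0, 37.1 and 36.3 CPM in WT libraries (log2 fold change 2.01 ± 0.14 SE, edgeR adjusted p = 1.01e-10). *Hist1h4i* fell by 2.14 (SE 0.20) on the log2 scale, *Pusl1* by 1.70 (SE 0.31) and *Akr1e1* by 1.46 (SE 0.31). *Csnk2a1*, a catalytic subunit of casein kinase 2, was at 42.3 to 49.4 CPM against 73.8 to 113 CPM (log2 fold change −1.04, SE 0.14). *Slc38a4*, an imprinted amino acid transporter gene, was at 20.2 to 27.3 against 8.13 to 13.5 CPM (1.21, SE 0.25). *Akr1e1* kept its call in 4 of 14 alternatives and lost it without any *Stat3* null library, WT A or WT B, *Slc38a4* kept it in 7, *Pusl1* in 10 and *Csnk2a1* in 12, whereas *Cwc22* and *Hist1h4i* kept theirs in all.

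*Grb10* was at 8.92, 22.8, 2.64 and 0 CPM in *Stat3* null and at 285, 271 and 260 CPM in WT boundary cells of E9.5. The groups lay far apart, but the gene was not called (log2 fold change −4.60 ± 0.55 SE, edgeR adjusted p = 0.178). In library *Stat3* null B the 59 cells with a tdTomato UMI were at 2.61 CPM and the 7 cells without one at 181 CPM. *Grb10* was called when only *Stat3* null cells with a tdTomato UMI were used (−6.05, edgeR adjusted p = 0.00047), without *Stat3* null B (−5.76, edgeR adjusted p = 0.0244) and by DESeq2 (−4.93, adjusted p = 0.0207).

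At E8.5 2 *Stat3* null libraries, with 120 and 34 boundary cells, were set against 2 WT libraries, with 86 and 103. Of 8981 genes tested 6 were called, 0.0668% of them, 3 (0.0334%) in each direction. DESeq2 called 4, and without WT A or WT B 3 were called. *Wnt1*, the organizer's WNT ligand on the midbrain side, was the single call among 21 tested midbrain and isthmic organizer genes. It was at 15.7 and 19.2 CPM in *Stat3* null and at 54.7 and 44.98 CPM in WT libraries. The *Stat3* null values were below both WT values, and with 2 libraries against 2 the groups did not overlap for 31.0% of all genes tested. The means were 17.5 ± 2.43 and 49.9 ± 6.89 CPM on 72 and 223 UMIs. The log2 fold change was −1.59 ± 0.23 (SE), with an edgeR adjusted p of 0.00501. The call rested on all 4 libraries: leaving out any of them gave −1.69 to −1.36 and ended it. Those fits left a lone E8.5 library in a group and, unlike the main fit, also took in the E9.5 libraries. The other 7 alternatives kept the call of *Wnt1*. In the few Midbrain progenitors of E8.5 *Wnt1* was at 9.504 and 53.1 CPM in *Stat3* null and 0 and 7.15 CPM in WT libraries, on 12 and 1 UMIs.

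The partners of *Wnt1* in the organizer did not pass the test. *En1* was at 206 and 262 CPM against 234 and 303 CPM, *Pax5* at 108 and 112 against 113 and 107 CPM, and *Otx2* at 138 and 113 against 137 and 134 CPM. *Fgf8* was at 107 and 188 CPM in *Stat3* null and 60.5 and 81.5 CPM in WT libraries (log2 fold change 0.99 ± 0.30 SE, unadjusted p = 0.0135, edgeR adjusted p = 1). Of 11 tested genes of FGF feedback and FGF receptors 0 were called, and their median log2 fold change was −0.39 against 0.00 for all genes tested. Of these, 4 had an unadjusted p under 0.05, all lower in *Stat3* null, as did 3.72% of all genes in either direction. *Spry1*, an FGF antagonist, was at 20.1 and 20.2 against 32.1 and 32.6 CPM, and *Dusp6*, an ERK phosphatase, at 13.99 and 9.59 against 21.4 and 26.4 CPM (edgeR adjusted p = 1 and 0.872). Of 11 tested dorsal neural tube and roof plate genes 0 were called, with a median of −0.52 and 3 lower at an unadjusted p under 0.05. Of 8 tested ventral and floor plate genes 0 were called, with a median of 0.27 and 2 higher at an unadjusted p under 0.05. One of these was *Foxa2*, the floor plate factor, at 7.58 and 7.46 CPM in *Stat3* null and 2.30 and 3.37 CPM in WT libraries (unadjusted p = 0.00966, edgeR adjusted p = 1). Of 4 tested mesenchyme genes 0 were called, with a median of −0.74.

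The other calls at E8.5 were *Akr1e1*, at 5.54 and 1.07 against 24.5 and 24.7 CPM, *Hist1h4i*, at 20.4 and 16.0 against 67.7 and 60.2 CPM, and 3 genes that were higher in *Stat3* null cells. These were the lactate dehydrogenase gene *Ldhb* (1.00, SE 0.15), the RNase P subunit gene *Pop4* (1.17, SE 0.20) and *Zdbf2*, an imprinted gene, at 151 and 102 against 73.9 and 50.6 CPM (1.06, SE 0.19). *Akr1e1* and *Hist1h4i* kept their calls in all 11 alternatives, whereas *Ldhb* kept its call in 7, *Zdbf2* in 6 and *Pop4* in 5.

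*Grb10* separated the 2 *Stat3* null libraries of E8.5. It was at 1.17 CPM in *Stat3* null A and 175 CPM in *Stat3* null B, against 185 and 189 CPM in WT libraries. In *Stat3* null B the 26 boundary cells with a tdTomato UMI were at 184 CPM, and 25 of them held a *Grb10* UMI. In the same 26 cells *Cwc22* was at 147 CPM and *Akr1e1* at 1.36 CPM, so that *Grb10* was at the WT level there and the other genes were not. *Grb10* differed by −1.63 ± 2.10 (SE) on the log2 scale in the fit, with an edgeR adjusted p of 1.

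**Figure D4:**
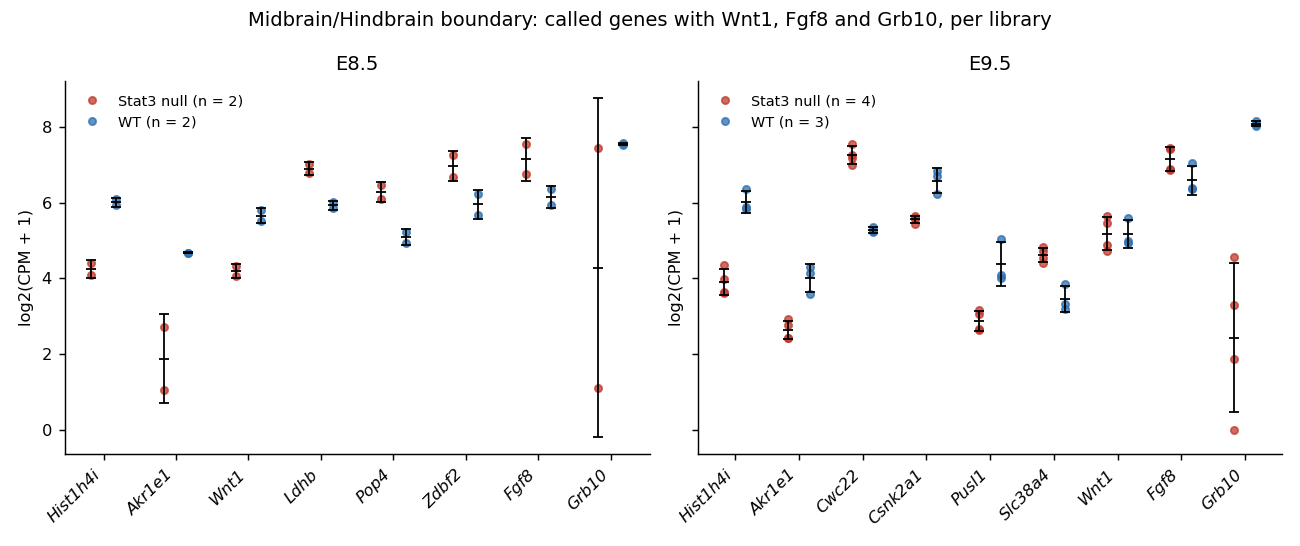
Called genes of the Midbrain/Hindbrain boundary cells with *Wnt1*, *Fgf8* and *Grb10*, as log2(CPM + 1) by library at E8.5 (left) and E9.5 (right), with mean ± SD. *Wnt1* is lower in both *Stat3* null libraries at E8.5 and overlaps at E9.5, and *Grb10* has 1 *Stat3* null library at the WT level at E8.5.

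The change from E8.5 to E9.5 in boundary cells was followed in each genotype. In WT 180 of 9440 genes were called, 1.91% of them, 120 higher (1.27%) and 60 lower (0.636%) at E9.5. In *Stat3* null 230 were called, 2.44%, 178 higher (1.89%) and 52 lower (0.551%). The genotypes shared 101 called genes, all in the same direction, which is 56.1% of the WT calls and 43.9% of the *Stat3* null calls. Their libraries differ but were sorted from the same chimeric embryos, and both comparisons came from the same fit of all these libraries. The overlap is thus not a repeat in separate data. Stage and library pool cannot be told apart, since every library held 1 stage. The WT count was 95 without E8.5 WT A and 64 without E8.5 WT B, and the *Stat3* null count was 118 without E8.5 *Stat3* null B.

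Of 21 tested neural progenitor genes, *Lin28a* was called lower in both genotypes, *Nes* higher in both, *Notch3* higher in WT and *Id4* higher in *Stat3* null. *Lin28a*, an RNA-binding protein of early progenitors that blocks let-7, was at 138 ± 13.6 CPM at E8.5 and 54.3 ± 14.2 CPM at E9.5 in WT, and at 131 ± 5.26 and 40.3 ± 12.4 CPM in *Stat3* null. The log2 fold changes were −1.49 (SE 0.19, edgeR adjusted p = 6.04e-05) and −1.83 (SE 0.19, edgeR adjusted p = 3.07e-06). The orphan nuclear receptor gene *Nr6a1* fell by 2.53 (SE 0.19) in WT and 2.92 (SE 0.18) in *Stat3* null, and the glucose transporter gene *Slc2a3* by 2.07 (SE 0.20) and 2.61 (SE 0.19). Of 8 tested floor plate and ventral genes 2 fell in WT and 3 in *Stat3* null. *Spon1* and *Ntn1*, secreted axon guidance factors of the floor plate, fell in both genotypes, *Spon1* by 1.96 and 2.94 and *Ntn1* by 1.50 and 2.58. *Ntn1* in WT lost its call in 6 of 17 alternatives, among them those without either E8.5 WT library. *Ina*, a neuronal intermediate filament gene, also fell in both.

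Of 21 tested midbrain and isthmic organizer genes 1 was called in WT, *Dmbx1*, and 4 in *Stat3* null, *Dmbx1* and *Irx3* lower and *Cnpy1* and *Wnt1* higher. *Irx3* lost its call without E8.5 *Stat3* null A. *Dmbx1*, a midbrain homeobox gene, fell by 1.97 (SE 0.45) in WT and 1.84 (SE 0.38) in *Stat3* null. It lost its call in 4 and 2 of 17 alternatives, and with a label share of at least 0.5 its *Stat3* null change was −0.92 with an edgeR adjusted p of 0.529. *Cnpy1*, the leading gene of the label, went from 30.5 ± 16.9 to 122 ± 40.6 CPM in WT (edgeR adjusted p = 0.105) and rose from 23.5 ± 12.1 to 150 ± 47.1 CPM in *Stat3* null (2.29, SE 0.51, edgeR adjusted p = 0.0432), a call that 9 of 17 alternatives kept. Of 11 tested STAT3 pathway genes 0 were called in WT and 1 in *Stat3* null, *Pim1*, a kinase gene that STAT3 induces. It rose from 48.8 ± 2.72 to 134 ± 31.1 CPM (1.26, SE 0.28), lost its call in 3 of 17 alternatives, and went from 54.9 ± 13.3 to 120 ± 35.2 CPM in WT (edgeR adjusted p = 0.0899). *Socs3* went from 4.66 ± 2.07 to 15.7 ± 6.32 CPM in *Stat3* null (1.38, SE 0.44, edgeR adjusted p = 0.0645) and from 8.57 ± 6.17 to 12.8 ± 1.07 CPM in WT (0.53, SE 0.43). It was not called, and in *Stat3* null 5 of 17 alternatives called it (adjusted p 0.00654 to 0.0301).

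Among the largest falls that both genotypes shared were those of *Enpp2*, the lysophosphatidic acid enzyme autotaxin, *Ppp1r16b*, *Car4*, a carbonic anhydrase, *Nr6a1*, *Klk8*, a serine protease, and *Slc2a3*. *Car4* fell from 109 ± 2.56 to 18.6 ± 4.73 CPM in WT and from 107 ± 21.9 to 14.9 ± 9.92 CPM in *Stat3* null, and *Klk8* from 32.3 ± 9.97 to 8.05 ± 0.618 CPM and from 35.8 ± 11.1 to 7.36 ± 1.25 CPM. *Enpp2* fell from 25.7 ± 11.4 to 1.40 ± 0.907 CPM and from 11.1 ± 6.97 to 0.532 ± 0.395 CPM. *Enpp2*, *Car4*, *Nr6a1*, *Klk8* and *Slc2a3* kept their calls in all 17 alternatives of both genotypes. *Ppp1r16b* lost its call without E8.5 WT B in WT and without E8.5 *Stat3* null A in *Stat3* null. *Fggy*, *Cela1* and *Fosb*, an immediate early gene, were also among the largest falls in WT, and *Foxa2*, *S100a6* and *Glrx* in *Stat3* null. *Fosb* and *Glrx* kept their calls in all 17 alternatives, and *Fggy*, *Cela1*, *Foxa2* and *S100a6* lost theirs in 1 to 4.

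The largest rises that both genotypes shared started from few UMIs. *Pmepa1* went from 2 to 56 UMIs in WT and from 1 to 63 in *Stat3* null, over all libraries of a stage, and *St8sia1* from 2 to 40 and from 1 to 42. *Fuom* (1 to 64 UMIs), *Bcl11a* (1 to 43), *Nr2e1* (1 to 37), *Gstm7* (2 to 40), *Rassf4* (2 to 39) and *Fcgrt* (2 to 36) were among the largest rises in WT. *Dmrtb1*, *Shb*, *Fam81a* and *Gypc* were among those in *Stat3* null, each from at most 4 UMIs at E8.5. *Fuom* in WT and *Dmrtb1* in *Stat3* null kept their calls in all 17 alternatives, and *Pmepa1* did in WT and kept 16 in *Stat3* null. *St8sia1* kept 11 of 16 in WT and 12 of 16 in *Stat3* null. Of 18 tested WNT response genes 0 were called in WT and 3 in *Stat3* null, *Fzd10*, a WNT receptor, and *Wnt3a* higher and *Sp5* lower. Among neuronal genes *Hes6* was called higher in *Stat3* null, and among forebrain genes *Barhl2* was called higher in WT, a call that 6 of 16 alternatives kept. The other genes of this group, from *Bcl11a* to *Hes6*, lost their calls in 1 to 5 alternatives.

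*Nes*, the progenitor intermediate filament nestin, rose from 73.9 ± 26.5 to 215 ± 53.3 CPM in WT (log2 fold change 1.36, SE 0.23) and from 72.1 ± 10.1 to 219 ± 15.8 CPM in *Stat3* null (1.42, SE 0.23). *Nfib*, a transcription factor of the switch to glia, rose from 0.664 ± 0.144 to 15.9 ± 1.39 CPM in WT and from 0.291 ± 0.412 to 17.4 ± 6.48 CPM in *Stat3* null. Its E8.5 levels rested on 3 and 2 UMIs. *Nfia*, its partner in the same switch, rose by 2.06 (SE 0.48) and 2.99 (SE 0.48) on the log2 scale. Of 7 tested astroglial genes, 3 were called higher in each genotype, *Nfia* and *Nfib* in both, *Fgfbp3* in WT and *Slc1a3* in *Stat3* null. *Ckb*, *Plagl1*, an imprinted zinc finger gene, and *Hoxb3os* also rose in both. Leaving out either E8.5 library of the genotype ended the calls of *Nfia*, *Notch3*, *Plagl1* and *Ckb* in WT and of *Nes*, *Slc1a3*, *Id4* and *Ckb* in *Stat3* null. *Hoxb3os* lost its call without E8.5 WT A in WT, and *Hoxb3os* and *Plagl1* lost theirs without E8.5 *Stat3* null A in *Stat3* null.

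Markers of other regions and cell types were read beside these stage changes. Of 12 tested hindbrain and *Hox* genes 0 were called in WT, with a median log2 fold change of 3.22, and 1 in *Stat3* null, *Atoh1*, with a median of 5.12. *Atoh1*, a factor of the rhombic lip, had 0 UMIs at E8.5 in *Stat3* null and 48 at E9.5. The summed level of all 17 genes of that list was 313 to 569 CPM at E8.5 and 197 to 621 CPM at E9.5. Of 7 mesenchyme genes *Col3a1* and *Prrx1* were called higher in *Stat3* null, of 4 neural crest genes *Ednrb* was called higher in *Stat3* null, and of 3 surface ectoderm genes *Epcam* was called higher in WT. *Ednrb* kept its call in 7 of 17 alternatives, *Col3a1* and *Prrx1* lost theirs without E8.5 *Stat3* null A, E8.5 *Stat3* null B or E9.5 *Stat3* null A, *Epcam* without E8.5 WT A, and *Atoh1* without E8.5 *Stat3* null A and with a label share of at least 0.5. The summed levels at E8.5 and E9.5 were 34.1 to 52.3 and 36.7 to 128 CPM for the 12 mesenchyme genes, 25.6 to 52.9 and 47.9 to 91.6 CPM for the 11 neural crest genes, and 27.2 to 47.8 and 15.8 to 43.8 CPM for the 12 surface ectoderm genes. All 4 sums overlapped between stages. A sum is weighted to its highest members and can hide changes in low ones. The 12 tested hindbrain and *Hox* genes changed by −0.96 to 4.14 on the log2 scale in WT and by −1.13 to 7.39 in *Stat3* null. Of the 12 hindbrain and *Hox* genes, 7 in WT and 9 in *Stat3* null were higher at E9.5 at an unadjusted p under 0.05. The share of all genes at that threshold was not taken between stages, so nothing is concluded from these counts. The share of boundary cells with a *Hox* UMI given above did not overlap between the stages, though it was also higher at E9.5 in the Ventral forebrain progenitors. The part of other cells in the stage changes was not tested.

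Of 16 tested dorsal neural tube genes 5 were called higher in *Stat3* null (*Msx2*, *Msx3*, *Zic1*, *Zic4* and *Zic5*) and 0 in WT, where the median was nevertheless 0.65 against 0.02 for all genes. *Zic1* went from 34.8 ± 23.8 to 173 ± 40.3 CPM in WT (log2 fold change 2.09 ± 0.51 SE, edgeR adjusted p = 0.0694) and from 17.2 ± 3.26 to 144 ± 56.9 CPM in *Stat3* null (2.88, SE 0.58, edgeR adjusted p = 0.03). *Dusp6*, *Etv1* and *Etv4*, targets of FGF signalling, were called higher in *Stat3* null and not in WT, with *Dusp6* at 1.50 (SE 0.31) against 0.70 (SE 0.28). Several of these *Stat3* null calls rested on single libraries. Of 17 alternatives *Msx3* lost its call in 8, *Etv1* in 7, *Zic1* in 5 and *Zic4* in 4, *Dusp6* and *Etv4* lost theirs without either E8.5 *Stat3* null library, and *Msx2* and *Zic5* theirs without E8.5 *Stat3* null A. *Wnt1* went from 49.9 ± 6.89 to 35.9 ± 9.91 CPM in WT (−0.63, SE 0.24, edgeR adjusted p = 0.146, and −1.40 with an adjusted p of 0.00068 in cells with a label share of at least 0.5) and rose from 17.5 ± 2.43 to 36.7 ± 11.4 CPM in *Stat3* null (1.00, SE 0.28, edgeR adjusted p = 0.0342), a call that 4 of 17 alternatives kept.

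Whether the genotypes differed in these changes was tested with the interaction of genotype and stage, which called 1 of 9440 genes, 0.0106%. That gene was *Cwc22*, with an interaction of 1.23 (SE 0.22, edgeR adjusted p = 0.0328), lost in 12 of its 17 alternatives, among them those without any 1 library other than E8.5 *Stat3* null B and E9.5 *Stat3* null B. *Wnt1* gave 1.63 (SE 0.37, unadjusted p = 0.00024, edgeR adjusted p = 1) and was not called, whereas without the filter on low counts it was called (1.62, edgeR adjusted p = 0.000378). DESeq2 called 0 genes.

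**Figure D5:**
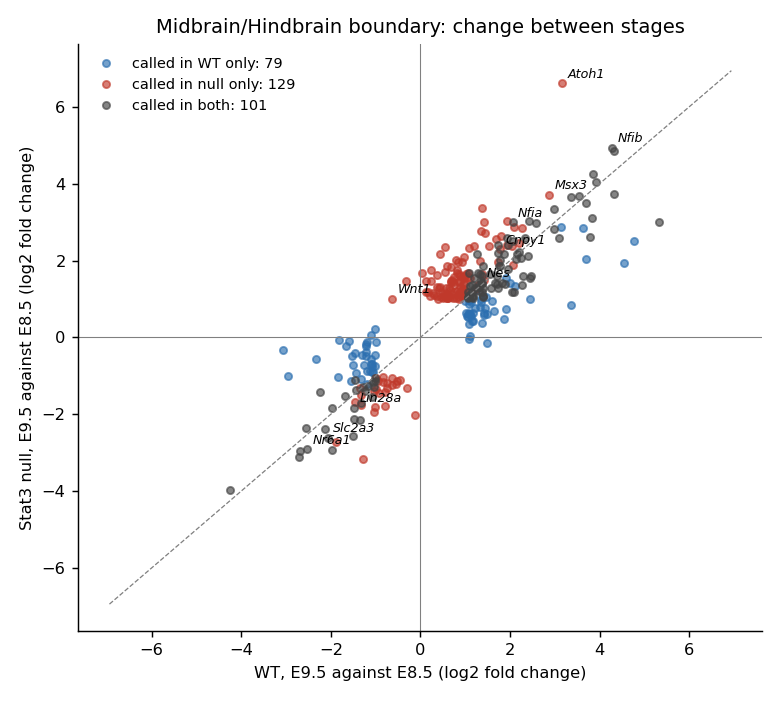
Log2 fold change from E8.5 to E9.5 in Midbrain/Hindbrain boundary cells, WT on the x axis and *Stat3* null on the y axis, for genes called in either genotype, with the line of equal change. The 101 genes called in both lie in the lower left or the upper right of the plot, and *Wnt1* lies left of 0 in WT and above 0 in *Stat3* null.

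The *Stat3* null against WT change in midbrain labels was set against that in 2 labels, with a test of the difference. These were Ventral hindbrain progenitors and Ventral forebrain progenitors, whose names place them beside the midbrain. Both are progenitor labels, whereas Dorsal midbrain neurons had neuronal leading genes and mostly held *Hox* transcripts. Region and differentiation cannot be told apart where that label is compared with them. Both labels of a pair came from the same libraries, and the fit had a term for each library. Midbrain/Hindbrain boundary cells gave 0 calls against either region at E9.5, of 10490 and 9918 genes, and 0 against Ventral hindbrain progenitors at E8.5, of 9743. Dorsal midbrain neurons gave 0 calls of 11415 genes against Ventral hindbrain progenitors and 0 of 10770 against Midbrain/Hindbrain boundary cells. At an unadjusted p under 0.05, edgeR counted 428 of 10490, 406 of 9918, 388 of 9743, 544 of 11415 and 391 of 10770 genes in these fits. In each fit this was a smaller share than the threshold of 0.05 itself. DESeq2 called 1 gene for the boundary against Ventral forebrain progenitors and 0 in the other 4. *Grb10* and *Cwc22* also differed in neighbouring labels: at E9.5 *Grb10* was at 6.45 ± 3.70 CPM in *Stat3* null and 356 ± 1.42 CPM in WT Ventral hindbrain progenitors, and *Cwc22* at 165 ± 7.35 and 37.5 ± 2.49 CPM (SD, n = 4 each). *Wnt1*, called lower in *Stat3* null boundary cells at E8.5, had 5 UMIs in *Stat3* null and 0 in WT Ventral hindbrain progenitors of that stage, and the difference of its changes was not called (unadjusted p = 0.00179, edgeR adjusted p = 1). In the few Midbrain progenitors of E9.5 *Grb10* and *Cwc22* were at 2.39 ± 3.92 against 249 ± 46.7 CPM and at 195 ± 47.0 against 39.8 ± 15.8 CPM.

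Dorsal midbrain neurons against Ventral forebrain progenitors gave 2 calls of 10870 genes, 0.0184%. *Pax2* was at 17.7, 24.6, 25.9 and 15.2 CPM in *Stat3* null and 18.8, 6.63, 11.2 and 6.59 CPM in WT Dorsal midbrain neurons. In Ventral forebrain progenitors it was at 11.03, 8.60, 17.4 and 17.4 CPM in *Stat3* null and 81.6, 15.5, 33.6 and 11.8 CPM in WT cells. The difference of the changes was 2.20 (SE 0.31, edgeR adjusted p = 0.00357), and without E9.5 WT A it was 1.92 with an adjusted p of 0.0532. *Phlda1*, an FGF-responsive gene, was at 121 ± 31.0 against 95.9 ± 13.2 CPM in Dorsal midbrain neurons and at 13.6 ± 3.73 against 32.6 ± 7.67 CPM in Ventral forebrain progenitors. Its difference was 1.56 (SE 0.25, edgeR adjusted p = 0.0279) and was lost without *Stat3* null A, *Stat3* null C, WT A, WT B or WT D (edgeR adjusted p 0.0793 to 0.239). Neither call can be read as a difference of region alone.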

How the data were processed

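Whole chimeric embryos were dissociated, sorted by tdTomato and sequenced with 10x 3' chemistry. The authors made the deposited UMI count matrix with Cell Ranger against mm10, per the submitters' processing notes, and filtered cells on reads, genes and mitochondrial and ribosomal percent. The authors' table of cells also gave these values as a percent, a doublet score and the label of each cell with the fraction of its 25 nearest atlas cells that carried it. These labels chose the cells. Columns left out for want of a matching sample numbered 0. All cells with a midbrain label, RNA quality passed and no doublet call were kept, and 596 WT singlets with a tdTomato UMI were left out over the series.

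UMIs were summed by library and label, for libraries with more than 15 cells of a label and groups of at least 2 libraries. Low counts were filtered with filterByExpr, and 8184 of 29453 genes were left out beforehand, namely Rik and numbered Gm genes, mitochondrial, ribosomal protein and haemoglobin genes, X inactivation and Y-linked genes and tdTomato. Sums were tested with edgeR 4.0.16 (TMM, glmQLFit, glmQLFTest, Benjamini-Hochberg) in R 4.3.3, without a block between genotypes and with a term for each library where 2 labels of the same libraries were compared. DESeq2 1.42.0 was an alternative, beside library totals, no filter, tdTomato-positive cells only, a label share of at least 0.5, cells without shared barcodes and leaving out each library. Single values used an exact permutation test in Python 3.11.15 with scipy 1.17.1. The scripts were tested on simulated data. Shares of cells with a UMI were taken after thinning to 10000 UMIs per cell. Exact binomial intervals (95%) cover counting error only.

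Genes were named by a rule: in each comparison the 12 largest changes each way among called genes whose libraries did not overlap, up to 12 called members of each gene list, and 12 genes named in advance. *Grb10*, a gene named in earlier results of these data, was added to them. In comparisons with few calls all called genes were named. Some genes that the rule names are not reported here. A few others were chosen after their values were seen, among them *H19*, *Spry1*, *Dusp6*, *Tubb3* and *Isl1* in the comparisons between genotypes. The cells and the gene lists were chosen with earlier results of these data known. The stage and sort gate in the table of cells gave each library its group. Libraries A to D are named in the order of the library names, since no label ties a library to a pool.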

Additional observations from a re-analysis of the deposited data

Results flagged for a closer look

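A library was looked at again where, in a group of 4, it lay farther from the others than Dixon's 95% limit allows. The groups tested were E9.5 levels of called genes and genes named in advance in Dorsal midbrain neurons and boundary cells. To these were added the single values, the labels' shares of cells and some shares of cells with a UMI. Other groups printed above, such as *H19* levels and levels in Midbrain progenitors, were not among them. This held in 4 of 111 groups, and chance gives about 1 in 20. In Dorsal midbrain neurons of E9.5, *En1* was at 31.8 CPM in the highest WT library (WT D) and at 14.96 to 16.3 CPM in the others. In Midbrain/Hindbrain boundary cells of E9.5, *Lmx1b*, a transcription factor of the isthmus and dorsal neural tube, was at 19.4 CPM in the highest *Stat3* null library and at 8.46 to 9.72 CPM in the others. The label's share of cells was 2.74% in *Stat3* null B and 1.55 to 1.75% in the other *Stat3* null libraries. Cells with both a *Tubb3* and a *Stmn2* UMI were 4.48% of the boundary cells in *Stat3* null A and 0 in the others.

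In 3 genes the change between *Stat3* null and WT differed between stages or labels by a test of the difference. *Cwc22* gave 1.23 on the log2 scale (edgeR adjusted p = 0.0328) for E9.5 minus E8.5 in the boundary cells. *Pax2* gave 2.20 (edgeR adjusted p = 0.00357) and *Phlda1* 1.56 (edgeR adjusted p = 0.0279) for Dorsal midbrain neurons minus Ventral forebrain progenitors. Each was lost without at least 1 library, as given above.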

How the results depend on the processing

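No paired analysis was possible because, between genotypes, the names of the libraries in the cell table carry no replicate number and match no embryo pool. Of 280 recomputed values of whole comparisons, 219 were counted as unchanged. Another 48, all counts, moved by over 1.5 times or went to or from 0, and 13 differences without a call changed sign. The limit of 1.5 times was set on counts only, so other values counted as unchanged could differ in size. With a library left out, the cell number change of Dorsal midbrain neurons at E8.5 reached −0.96, against −0.26 in the main fit. The change of G2 and M phase genes reached 378 CPM, against 124 CPM. Of 3018 recomputed values of named genes, 268 lost a call and 16 gained one. For genes called in the main fit 0 changed sign, and sign changes of the other named genes were not counted.

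Without the filter on low counts, genes called between genotypes numbered 26 in Dorsal midbrain neurons and 20 in boundary cells at E9.5 and 22 in boundary cells at E8.5. Calls between stages were then 306 in WT and 348 in *Stat3* null, and the interaction called 5. Differences between labels called 21 genes for Dorsal midbrain neurons against Ventral hindbrain progenitors, 28 against Ventral forebrain progenitors and 3 against boundary cells, and 5, 7 and, at E8.5, 1 for the boundary against hindbrain, forebrain and hindbrain. With a label share of at least 0.5 (chosen after seeing the data) boundary cells gave 2 calls at E9.5 and the interaction 0. DESeq2 called 0 in the interaction and 1 for the boundary against forebrain. DESeq2 also called 121 and 199 genes between stages in WT and *Stat3* null. Library totals gave 0 in the interaction and 1 for the boundary against hindbrain at E8.5. Cells with a tdTomato UMI gave 1 for the boundary against hindbrain at E9.5. The cell number change of the boundary at E8.5 was −0.064 with those cells and −0.011 with no minimum of cells. The cause of these changes was not tested.

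Leaving out 1 library at a time gave 10 to 16 calls in Dorsal midbrain neurons and 4 to 9 in boundary cells at E9.5, and 3 to 4 at E8.5. Stage calls were 64 to 197 in WT and 118 to 264 in *Stat3* null, and the interaction gave 0 to 1. Dorsal midbrain neurons gave 0 to 1 against hindbrain, 0 to 4 against forebrain and 0 to 1 against boundary cells. The boundary gave 0 to 3 against either region at E9.5 and 0 to 10 against hindbrain at E8.5, with 10 without E8.5 WT B. Cell number changes at E8.5 were −0.96 to 1.03 for Dorsal midbrain neurons, −0.068 to 0.19 for the boundary and 1.06 for Midbrain progenitors, where a single fit was possible. At E9.5 they were −0.16 to 0.44, −0.025 to 0.50 and 0.02 to 0.68. Over all cells with a midbrain label *Stat3* changed by −2.57 to −1.90 CPM, the atlas stage by −0.063 to 0.038 days, S phase genes by −180.4 to 3.80 CPM and G2 and M phase genes by −129 to 378 CPM. Where a lone library was left in a group it was assumed to vary like the other groups. For boundary cells between genotypes at E8.5 the fits with a library left out also took in the E9.5 libraries, unlike the main fit.

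Cells limited these results: the E9.5 boundary tests rest on 25 to 67 cells per library, and Midbrain progenitors allowed none. Libraries of 1 embryo pool could not be matched, so embryo differences stay in the spread.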
